A study of Mus musculus with 2 samples.

Results

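Solute carriers are membrane proteins that move nutrients, ions, metabolites and cofactors across the cell surface and the membranes of organelles, and their genes carry symbols that start with Slc. The members described here were chosen by their total count, as all Slc genes with at least 500 unique molecular identifiers (UMIs, each standing for 1 captured RNA molecule) summed over both libraries of the study, except 8 that were left out by name. Of 375 Slc symbols in the gene list of the study 190 reached 500 UMIs, which left 182 members. They were sorted by what they carry into 16 groups. The study used 10x Genomics single-cell RNA sequencing on crypts isolated from the colon of 4-week-old C57BL/6 mice. Control mice carried floxed alleles of M14, read here as Mettl14, a subunit of the enzyme that writes N6-methyladenosine into RNA, and are written M14(f/f). The mice of the other group, M14(f/f);Villin-Cre, also carried a Cre recombinase under the Villin promoter, which is active in the epithelium of the gut, and their library is called the VillinCre library. Each genotype had 1 library, made from the pooled cells of 3 mice, so no test was made and no spread between animals can be given. The intervals in parentheses are exact 95% intervals that cover counting error only. Just under the UMI limit stood Slc25a34 with 462 UMIs and Slc19a2 with 483, and just above it Slc43a3 with 507 and Slc28a3 with 509.

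Colonocytes, the absorptive cells of the colon surface, take up short-chain fatty acids, salts and water from the lumen, largely through carriers. In many carrier families a protein of the brush border takes a solute up and another of the basolateral membrane releases it to the blood, as for bile acids, iron and monocarboxylates. Goblet cells, which secrete mucus, rely on carriers of the Golgi and endoplasmic reticulum that supply sugars to mucins. Mitochondrial carriers of the Slc25 family exchange nucleotides, phosphate and metabolites across the inner mitochondrial membrane in all of these cells.

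The control library held 111239295 UMIs in 10181 cell barcodes, with a median of 9085 per barcode, and the VillinCre library 89729527 UMIs in 9225 barcodes, with a median of 3872. After filters 8705 control and 6049 VillinCre cells were epithelial-like. Classes of cells were named from marker genes after clustering without any Slc gene. A single library supplied 90% or more of the cells in 17 of the 22 epithelial clusters, which together held 87.9% of the epithelial-like cells. In the goblet-like, colonocyte-like and cycling-like classes most cells therefore came from different clusters in the 2 libraries, and there the genotype, its library and its clusters cannot be told apart. The enteroendocrine-like and tuft-like clusters held cells of both. Xist, which silences 1 X chromosome in female cells, had 0.0648 UMIs per 1000000 UMIs of the class (written CPM) in control and 311 CPM in VillinCre epithelial-like cells, so genotype and sex of the mice cannot be told apart either, which bears on members on the X chromosome such as Slc6a14, Slc25a5, Slc35a2 and Slc6a8. Mettl14 itself had 4.76 CPM in control and 5.06 CPM in VillinCre epithelial-like cells, from 514 and 417 UMIs. The 2 libraries shared 33 barcodes.

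Member genes together made up 0.799% of the UMIs of epithelial-like cells in the control library and 0.735% in the VillinCre library. By epithelial class the share ran highest in colonocyte-like cells, at 0.951% of UMIs in control and 0.805% in VillinCre, while cycling-like cells had 0.664% and 0.568%. Goblet-like cells had 0.820% and 0.762%, enteroendocrine-like cells 0.638% and 0.650%, and lymphocytes named T or NK-like 0.498% and 0.503%. Levels are given as CPM, with the UMIs of a gene scaled to the total of its class and library. CPM is not corrected for transcript length, so levels are compared between classes and libraries for 1 gene and not between genes.

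In the control library many members were highest in colonocyte-like or goblet-like cells. A member was assigned to a class where its level there was at least 10 CPM and at least 1.5 times that of the next of the 4 larger classes, after 1 CPM was added to both. Of 141 members that reached 10 CPM in a class, 36 were highest in colonocyte-like cells (25.5%, against 10.1% of all genes with 500 UMIs), 27 in goblet-like cells (19.1%, against 6.48%), 9 in enteroendocrine-like cells (6.38%, against 7.46%) and 0 in cycling-like cells (against 3.61%). In the VillinCre library 146 members reached 10 CPM, and 17 were highest in colonocyte-like cells (11.6%, against 5.98%), 20 in goblet-like cells (13.7%, against 4.11%), 22 in enteroendocrine-like cells (15.1%, against 21.8%) and 3 in cycling-like cells (2.05%, against 6.53%). Of 130 members compared in both libraries 84 (64.6%) had their highest level in the same class, beside 63.6% of all genes. This count did not require the 1.5-fold lead over the next class. The bar plot of these counts shows the colonocyte-like bar as the tallest of the named classes in control and the enteroendocrine-like bar as the tallest in VillinCre.

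**Figure D1:**
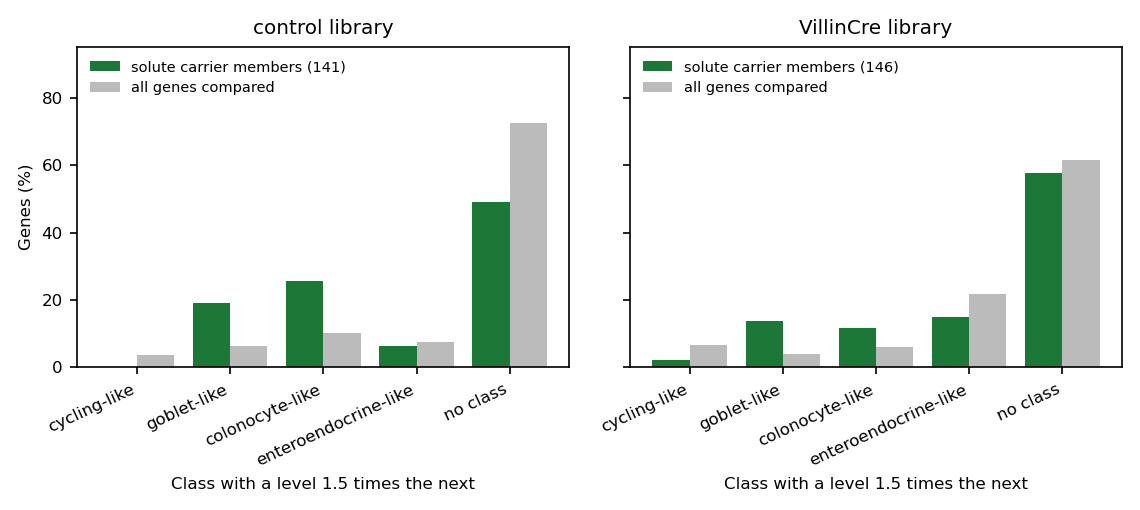
Members by the class in which their level was highest by at least 1.5-fold over the next class, for 141 members in the control library and 146 in the VillinCre library, beside the same share of all genes with 500 UMIs. Colonocyte-like cells held 36 members in control and 17 in VillinCre, while enteroendocrine-like cells held 9 and 22.

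The 36 members assigned to colonocyte-like cells in control came from 15 of the groups, with 5 carriers of organic anions, bile acids and drugs, 4 of monocarboxylates and dicarboxylates, 4 mitochondrial carriers, 4 of unclear substrate and 3 of metals. Slc51a and Slc51b, the subunits of the basolateral bile acid exporter, were 27.5 and 23.2 times as high there as in the next class. The brush border carriers Slc13a2 (citrate and other dicarboxylates) and Slc10a2 (bile acids) stood 19.7 and 18.7 times above the next class, and Slc37a2 (glucose 6-phosphate) 12.2 times. Ratios for goblet-like cells were smaller, with 2.92 for the magnesium carrier Slc41a2, 2.66 for Slc12a8, 2.34 for the sugar carrier Slc50a1 and 2.23 for Slc35a2, which brings UDP-galactose into the Golgi. Among enteroendocrine-like cells the vesicular monoamine transporter Slc18a1, which loads serotonin into granules, stood 27.3 times above the next class, and no other member passed 2.80 times.

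Colonocyte-like cells also held the largest differences between the libraries. The comparison asks where carriers differed between mice with and without the Villin-Cre recombinase. The class had 1796 control and 601 VillinCre cells, with medians of 11477.5 and 15660 UMIs per cell. Of 111 members that reached 10 CPM in 1 library, 39 were lower in VillinCre by more than 1.5-fold (35.1%, against 17.8% of all genes compared) and 25 were higher (22.5%, against 27.9%). The median log2 ratio of VillinCre over control was -0.22 over these members and 0.08 over all genes. Scaling to UMIs without mitochondrially encoded and ribosomal protein genes moved the median of all genes to 0.25, and of 129 members then compared 43 were higher (beside 34.9% of all genes) and 38 lower (beside 13.0%). The make-up of the class and the background depended on the clustering. With a looser cell filter, without removal of doublets, or at a clustering resolution of 0.5 or 2, the class held 322 to 462 VillinCre cells, 35 to 39 members were lower beside 24.3% to 26.0% of all genes, and 22 or 23 were higher beside 16.7% to 18.0%. At resolution 2 a colonocyte-like cluster of 310 VillinCre cells had 13 colonocyte markers among its 50 leading genes and a median of 8791 UMIs. A cluster of 304 VillinCre cells, led by Ly6c1 and Ly6g, had 1 such marker, a median of 22333.5 UMIs and no class name. Levels of single members below are those of the 601 cells of the main class and are not given for the narrower classes.

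**Figure D2:**
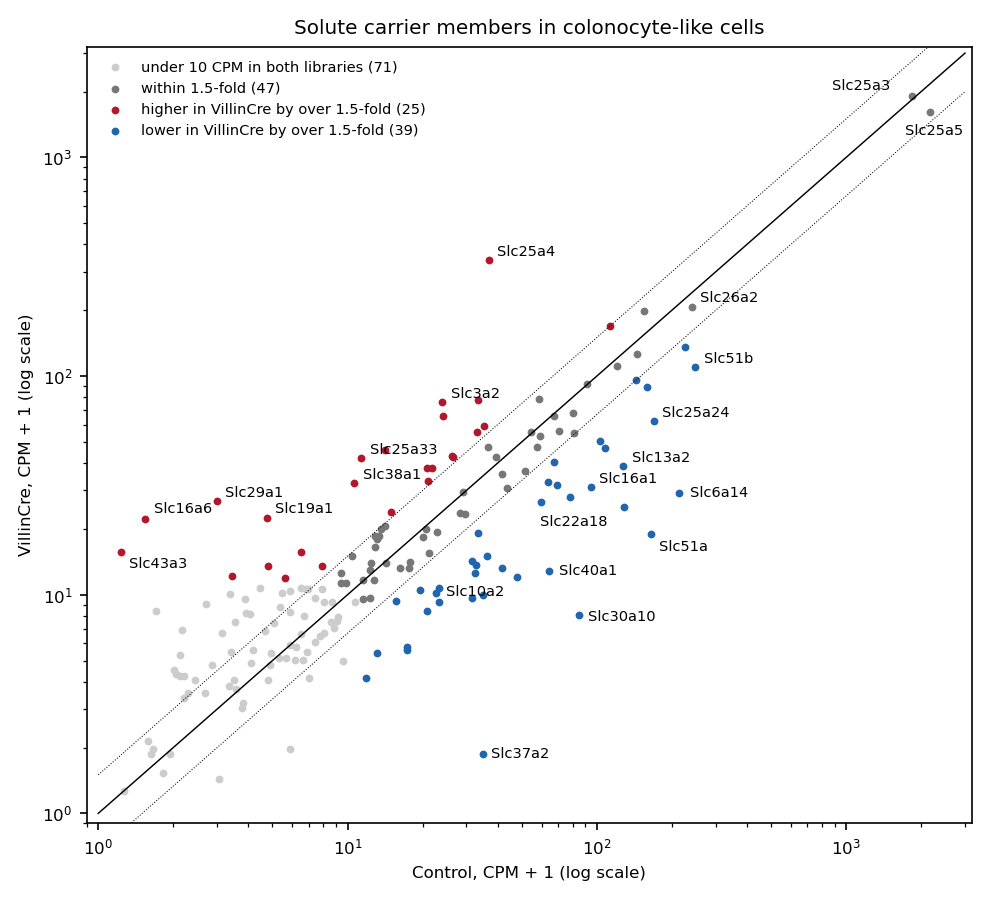
Level of each of the 182 members in colonocyte-like cells, control on the horizontal and VillinCre on the vertical axis, both CPM plus 1 on log scales, with lines at equality and at 1.5-fold. There were 71 members under 10 CPM in both libraries, 47 within 1.5-fold, 25 higher and 39 lower in VillinCre.

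Other genes of these cells differed between the libraries as well. The 18 colonocyte markers summed to 81056 CPM in control and 17448 CPM in VillinCre, with 14 lower and 2 higher. All 14 cycling markers were higher in VillinCre, with sums of 440.5 and 1621 CPM. The 15 myeloid markers summed to 6.69 and 194 CPM, with 5 of them at 0 in control and 0 at 0 in VillinCre, the 15 goblet markers to 3790 and 2775 CPM, and the 15 T or NK markers to 9.65 and 10.9 CPM. The part of these differences in the results for the members was not tested.

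Carriers of bile acids, organic anions and drugs were mostly lower in VillinCre colonocyte-like cells, with 5 of 7 lower, 1 higher and a median log2 ratio of -1.70. Beside this and the other group counts of this class, 17.8% of all genes compared were lower and 27.9% higher. Slc51a had 163 CPM (158 to 168) in control and 17.9 CPM (15.5 to 20.6) in VillinCre, 9.12 times lower (7.92 to 10.5). Its partner Slc51b had 248 CPM (241 to 254) and 109 CPM (103 to 115), 2.27 times lower (2.14 to 2.42). The intervals of the 2 libraries did not overlap for either subunit, and those of their ratios did not overlap either. They cover counting error under the main processing only. By the mean over classes the log2 ratio of Slc51b was -0.37. Under the 17 alternatives of the processing that mean ran from -0.63 to 1.19, with its sign kept in 14. Its ratio in colonocyte-like cells alone is not given for them. Slc10a2, which takes bile acids up at the brush border, had 46.8 CPM (44.2 to 49.5) and 11.1 CPM (9.22 to 13.2), 4.23 times lower. Slc22a18, an organic cation carrier of the polyspecific family, had 127 CPM (123 to 132) and 24.2 CPM (21.4 to 27.2), 5.26 times lower. Slc17a4, an organic anion carrier of the intestine, had 30.6 CPM (28.5 to 32.8) and 8.69 CPM (7.07 to 10.6). The exception was Slc17a9, which loads nucleotides into vesicles, with 14.01 CPM in control and 23.0 CPM in VillinCre, 1.64 times higher (1.40 to 1.93).

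The sequences before the start sites of the 2 exporter subunits, of Slc6a14 and of Slc25a4 are shown because these genes carried large differences in both directions. RefSeq gave a promoter window for 139 members, and the 250 bases before the start site are printed 5′ to 3′ on the strand of the gene, in build GRCm38.p6, with each CG pair in capitals. Slc51a lies at chr16:32487880-32488129 (minus strand), Slc51b at chr9:65422774-65423023 (minus), Slc6a14 at chrX:21714650-21714899 (plus) and Slc25a4 at chr8:46211063-46211312 (minus).
Slc51a: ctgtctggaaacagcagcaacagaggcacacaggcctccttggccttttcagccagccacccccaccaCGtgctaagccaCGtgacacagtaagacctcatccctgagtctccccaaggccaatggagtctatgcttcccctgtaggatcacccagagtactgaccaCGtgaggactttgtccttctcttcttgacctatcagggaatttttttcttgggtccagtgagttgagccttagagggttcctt
Slc51b: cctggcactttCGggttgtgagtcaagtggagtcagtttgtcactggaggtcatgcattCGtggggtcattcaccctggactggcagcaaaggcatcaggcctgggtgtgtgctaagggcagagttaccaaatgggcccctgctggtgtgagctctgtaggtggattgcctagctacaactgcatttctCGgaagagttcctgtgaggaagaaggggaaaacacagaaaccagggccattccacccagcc
Slc6a14: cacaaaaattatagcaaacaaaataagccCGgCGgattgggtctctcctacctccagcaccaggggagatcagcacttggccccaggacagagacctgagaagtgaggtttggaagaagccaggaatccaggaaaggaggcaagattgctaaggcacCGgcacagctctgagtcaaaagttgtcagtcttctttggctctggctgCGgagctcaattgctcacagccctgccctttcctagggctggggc
Slc25a4: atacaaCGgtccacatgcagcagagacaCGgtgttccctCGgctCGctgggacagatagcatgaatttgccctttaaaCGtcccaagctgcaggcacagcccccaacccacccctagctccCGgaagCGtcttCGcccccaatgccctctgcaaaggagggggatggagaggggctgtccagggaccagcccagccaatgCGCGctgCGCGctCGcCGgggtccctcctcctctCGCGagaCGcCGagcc
The windows of Slc51a and Slc51b held 3 CG pairs each and that of Slc6a14 4, where the window of Slc25a4 held 18. The median was 14 over the 139 members, 13 over the 28 of them assigned to colonocyte-like cells, and 16 over 8352 genes with at least 500 UMIs. Windows with 3 or fewer CG pairs made up 5.76% of members and 7.82% of those genes. The palindrome CACGTG, which reads the same on both strands and was looked up after the sequences had been seen, occurred 3 times before Slc51a and in no other printed window. At least 1 match stood in 17 members (12.2%) and in 8.82% of genes with 500 UMIs, and 3 or more in 1 member and 12 such genes. A match is a description of the letters and not of a bound site.

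Carriers of short-chain fatty acids and related acids showed a similar picture, with 4 of 5 compared members lower and 1 higher in VillinCre colonocyte-like cells. Slc16a1, the proton-coupled monocarboxylate transporter that carries butyrate and lactate, had 93.8 CPM (90.1 to 97.6) in control and 30.04 CPM (26.9 to 33.4) in VillinCre, 3.12 times lower. Slc5a8, its sodium-coupled counterpart of the brush border, had 107 CPM (103 to 111) and 45.9 CPM (42.1 to 50.04), 2.34 times lower. Slc13a2, which takes up citrate and other dicarboxylates, had 127 CPM (123 to 131) and 37.9 CPM (34.4 to 41.6), 3.35 times lower. No interval of these carriers overlapped between the libraries. Slc16a6, another member of the monocarboxylate transporter family, went the other way, from 0.545 CPM (0.298 to 0.914, 14 UMIs) in control to 21.3 CPM (18.7 to 24.1, 242 UMIs) in VillinCre, 39.0 times higher (22.8 to 72.4).

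Of the 15 metal carriers compared 5 were lower (33.3%) and 2 higher in VillinCre colonocyte-like cells. Slc30a10, which exports manganese, had 84.0 CPM (80.5 to 87.6) in control and 7.11 CPM (5.65 to 8.84) in VillinCre, 11.8 times lower (9.46 to 14.9). Slc40a1, the iron exporter ferroportin, had 63.3 CPM (60.3 to 66.5) and 11.9 CPM (9.94 to 14.03), 5.34 times lower (4.48 to 6.42). The control library was higher for both, beyond counting error. The copper importer Slc31a1 was also among the lower with 102 and 49.4 CPM. So were the zinc carriers Slc30a4, with 21.6 CPM in control and a log2 ratio of -1.15, and Slc39a9, with 31.3 CPM in control. The zinc carriers Slc30a7, Slc30a9, Slc30a5 and Slc30a6 were within 1.5-fold. The zinc importers Slc39a7, which sits in the secretory pathway, and Slc39a10, which sits at the cell surface, were the 2 higher, with 25.5 and 41.6 CPM for Slc39a7 and 3.81 and 12.5 CPM for Slc39a10. Slc39a7 shared 81.7% of the 60-base words near the 3′ end of its transcripts with other genes, so its count is uncertain.

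Among sugar carriers Slc37a2, which exchanges glucose 6-phosphate for phosphate in the endoplasmic reticulum, had 34.0 CPM (31.7 to 36.3) in control and 0.878 CPM (0.421 to 1.62, 10 UMIs) in VillinCre, 38.7 times lower (20.9 to 80.9). Its relative Slc37a1 had 32.3 and 18.1 CPM, and the inositol carrier Slc5a3 22.3 and 8.26 CPM, so that 3 of 6 sugar carriers compared were lower and 0 higher. Slc5a1, the sodium-glucose cotransporter, stayed within 1.5-fold at 42.8 and 29.7 CPM. The median log2 ratio of the group was -0.66.

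Anion, phosphate, fatty acid and vitamin carriers are 4 groups given together here, with 6 lower members and 1 higher member. Among all genes compared 17.8% were lower and 27.9% higher, and the pooled count is not read as a result about these groups. Slc4a4, a sodium bicarbonate cotransporter, had 40.6 CPM (38.2 to 43.2) in control and 12.3 CPM (10.3 to 14.5) in VillinCre, and the chloride-bicarbonate exchanger Slc4a2 had 62.6 and 31.7 CPM. The sulfate carrier Slc26a2 was within 1.5-fold at 239 and 207 CPM, and the bicarbonate cotransporter Slc4a7 at 50.6 and 35.7 CPM. Lower members were also the phosphate importer Slc20a1 with 31.6 and 12.6 CPM, the fatty acid carrier Slc27a4 with 35.4 and 13.96 CPM, the vitamin C carrier Slc23a2 with 16.4 and 4.57 CPM, and the thiamine pyrophosphate carrier Slc44a4 with 143 CPM (138 to 148) and 94.5 CPM (88.9 to 100.3). The ratio of Slc44a4 was 1.51 (1.41 to 1.62), close to the limit of 1.5. The folate carrier Slc19a1 was the higher member, with 3.74 CPM (3.03 to 4.56) and 21.5 CPM (18.9 to 24.4), 5.76 times higher (4.53 to 7.37). Phosphate and fatty acid carriers had 1 member each that could be compared.

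Amino acid carriers divided. Of 12 compared members 5 were higher and 3 lower in VillinCre colonocyte-like cells, beside 27.9% and 17.8% of all genes. The median log2 ratio of the group was 0.52. The lowest was Slc6a14, a brush border importer of neutral and cationic amino acids on the X chromosome, with 213 CPM (208 to 219) in control and 28.1 CPM (25.1 to 31.4) in VillinCre, 7.58 times lower (6.77 to 8.52). Slc1a1, which imports glutamate and aspartate, had 10.9 CPM (9.66 to 12.2) and 3.16 CPM (2.21 to 4.38), and Slc3a1, the heavy chain of the cystine carrier, 30.6 and 13.3 CPM. In the other direction Slc3a2, the heavy chain shared by Slc7a5 and its relatives, had 23.0 CPM (21.2 to 24.9) in control and 75.2 CPM (70.2 to 80.4) in VillinCre, 3.27 times higher (2.94 to 3.64). The glutamine importers Slc1a5 and Slc38a1 were 2.37 and 3.27 times higher, with 32.3 and 76.8 CPM for Slc1a5 and 9.65 and 31.5 CPM for Slc38a1. Slc7a1 and Slc7a4, of the cationic amino acid carrier family, were 2.67 and 2.39 times higher. Slc38a2, a further glutamine importer, was within 1.5-fold at 145 and 126 CPM, and Slc7a5 stayed under 10 CPM in both libraries.

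Slc29a1 and Slc43a3 were much higher in VillinCre colonocyte-like cells. Slc29a1, the equilibrative nucleoside transporter, had 1.98 CPM (1.48 to 2.61, 51 UMIs) in control and 25.8 CPM (23.0 to 28.9) in VillinCre, 13.0 times higher (9.64 to 17.9). Slc43a3, which is grouped with carriers of unclear substrate, had 0.233 CPM (0.0857 to 0.508, 6 UMIs) and 14.8 CPM (12.6 to 17.2, 168 UMIs), 63.2 times higher (28.4 to 175). Of 10 nucleotide sugar and donor carriers compared 2 were higher, namely Slc35b2, which brings the sulfate donor into the Golgi, with 23.1 and 64.8 CPM, and Slc35a1, which brings in CMP-sialic acid, with 111 and 169 CPM. Slc35d1, which carries UDP-glucuronic acid, was the 1 lower member with 77.2 and 27.1 CPM, and Slc35b1, an ATP carrier of the endoplasmic reticulum, was within 1.5-fold at 79.9 and 54.0 CPM.

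Mitochondrial carriers had 5 of 24 compared members higher and 5 lower in VillinCre colonocyte-like cells, beside 27.9% and 17.8% of all genes. Their median log2 ratio was -0.05. The phosphate carrier Slc25a3, which feeds ATP synthesis, had 1832 CPM (1815 to 1848) in control and 1900 CPM (1875 to 1926) in VillinCre, and the carnitine carrier Slc25a20 of fatty acid oxidation had 90.2 and 90.9 CPM. The glutathione carrier Slc25a39 had 154 and 198 CPM, also within 1.5-fold. Higher in VillinCre were the adenine nucleotide translocase Slc25a4 with 36.0 CPM (33.7 to 38.4) and 338 CPM (327 to 349), the pyrimidine nucleotide carrier Slc25a33 with 10.3 and 41.3 CPM, the iron importer Slc25a28 with 13.1 and 44.8 CPM, Slc25a46 of the outer membrane with 20.8 and 37.2 CPM, and the NAD carrier Slc25a51 with 31.9 and 54.3 CPM. Lower were the citrate carrier Slc25a1 with 66.4 and 39.3 CPM, the dicarboxylate carrier Slc25a10 with 159 and 88.2 CPM, the ATP-magnesium carriers Slc25a24 with 168 and 61.0 CPM and Slc25a25 with 19.8 and 7.47 CPM, and Slc25a35, whose substrate is unclear, with 16.3 and 4.74 CPM.

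**Figure D3:**
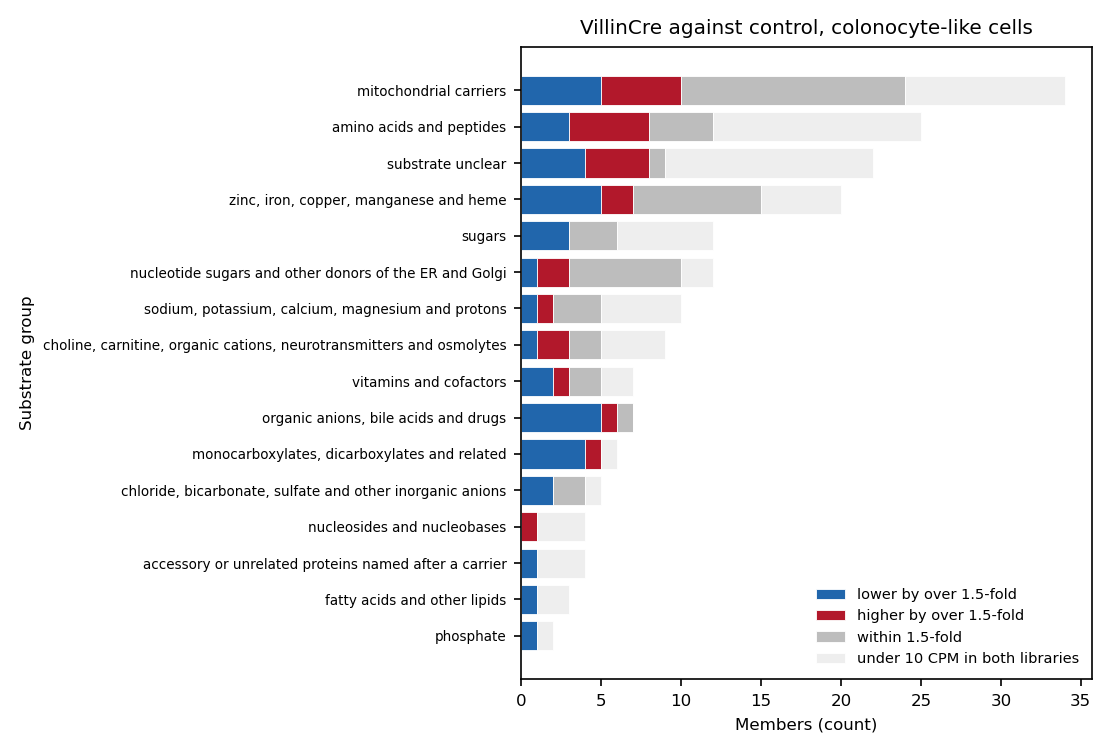
Members of each of the 16 substrate groups that were higher, lower or within 1.5-fold in VillinCre colonocyte-like cells, or under 10 CPM in both libraries, as stacked counts. Carriers of organic anions, bile acids and drugs had 5 of 7 lower and monocarboxylate carriers 4 of 5 compared lower, while amino acid carriers had 5 higher and 3 lower. Of all genes compared 17.8% were lower and 27.9% higher.

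Slc25a4 and Slc25a5 encode 2 forms of the same adenine nucleotide translocase, and the share of each differed between the libraries in every class. Slc25a4 gave 1.63% (1.53 to 1.74) of the UMIs of the pair in control and 17.4% (16.9 to 17.9) in VillinCre colonocyte-like cells. The share was 3.65% and 9.75% in goblet-like cells, 5.75% and 11.3% in cycling-like cells, 18.2% and 37.3% in the enteroendocrine-like class, and 22.0% and 31.5% among T or NK-like lymphocytes. Slc25a5, the form on the X chromosome, had 2171 CPM (2153 to 2189) and 1605 CPM (1582 to 1628) in colonocyte-like cells, 1.35 times lower in VillinCre.

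The control cells of this class came from clusters 3 and 8 and the VillinCre cells mostly from cluster 14, with 560 of 601 cells and 94.0% of the UMIs, while 33 cells shared cluster 3 with control. Car1, a carbonic anhydrase and the most abundant colonocyte marker, had 90179 CPM in control cluster 8, 40107 CPM in control cluster 3, 23078 CPM in VillinCre cluster 3 and 8681 CPM in VillinCre cluster 14. Among the members, Slc51a had 261 CPM (251 to 271) in control cluster 8, 99.9 CPM (94.98 to 105) in control cluster 3, 118 CPM (91.8 to 149) in VillinCre cluster 3 and 8.31 CPM (6.68 to 10.2) in VillinCre cluster 14. The 2 libraries thus overlapped within cluster 3, and the 33 VillinCre cells there held 33.8% (27.4 to 40.8) of the Slc51a UMIs of the VillinCre class beside 5.13% of all its UMIs. Slc40a1 had 58.4 CPM (54.7 to 62.4) and 53.0 CPM (36.0 to 75.3) in cluster 3 of control and VillinCre but 8.03 CPM (6.43 to 9.92) in cluster 14. Slc5a8 had 122 CPM (117 to 128), 128 CPM (101 to 161) and 41.2 CPM (37.4 to 45.2), and Slc4a4 46.4, 42.8 and 10.7 CPM, in the same order. For these 4 members the intervals of the libraries overlapped in cluster 3. A further 8 VillinCre cells lay in cluster 8 and held 46 of the 204 Slc51a UMIs of the class, beside 69 in cluster 3 and 89 in cluster 14. Without the cells of cluster 3, a comparison chosen after seeing the data, the VillinCre class had 12.5 CPM (10.5 to 14.8) of Slc51a, 9.63 CPM (7.87 to 11.7) of Slc40a1, 41.5 CPM (37.7 to 45.5) of Slc5a8 and 10.6 CPM (8.79 to 12.8) of Slc4a4. These levels had to fall, since the 4 members stood higher in VillinCre cluster 3 than in the VillinCre class as a whole. Only VillinCre cells were left out and the control class kept its cluster 3, so no conclusion is drawn from these values.

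Other members had intervals that did not overlap between the libraries within cluster 3. These intervals take UMIs as independent and rest on 33 VillinCre cells of 1 library. Slc6a14 was within 1.5-fold, with 142 CPM (136 to 148) in control and 103 CPM (78.3 to 132) in VillinCre. Slc30a10 had 56.6 CPM (52.9 to 60.4) and 22.2 CPM (11.8 to 38.0), and Slc16a1 73.0 and 44.5 CPM (29.1 to 65.2). Slc37a2 had 23.2 CPM (20.8 to 25.7) in control and 0 UMIs in VillinCre, where 5.13 CPM is the bound if UMIs are independent. Few control cells held a UMI of this gene, so 33 VillinCre cells cannot show whether it differed within cluster 3. Of the members higher in VillinCre, Slc25a4 had 49.1 CPM (45.7 to 52.7) in control and 111 CPM (85.8 to 142) in VillinCre cluster 3, against 353 CPM (342 to 365) in cluster 14. Slc16a6 had 0.770 and 10.3 CPM (3.77 to 22.3) in cluster 3, and 22.0 CPM (19.3 to 25.05) in cluster 14. Intervals in cluster 3 were wide for VillinCre because only 33 cells lay there.

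**Figure D4:**
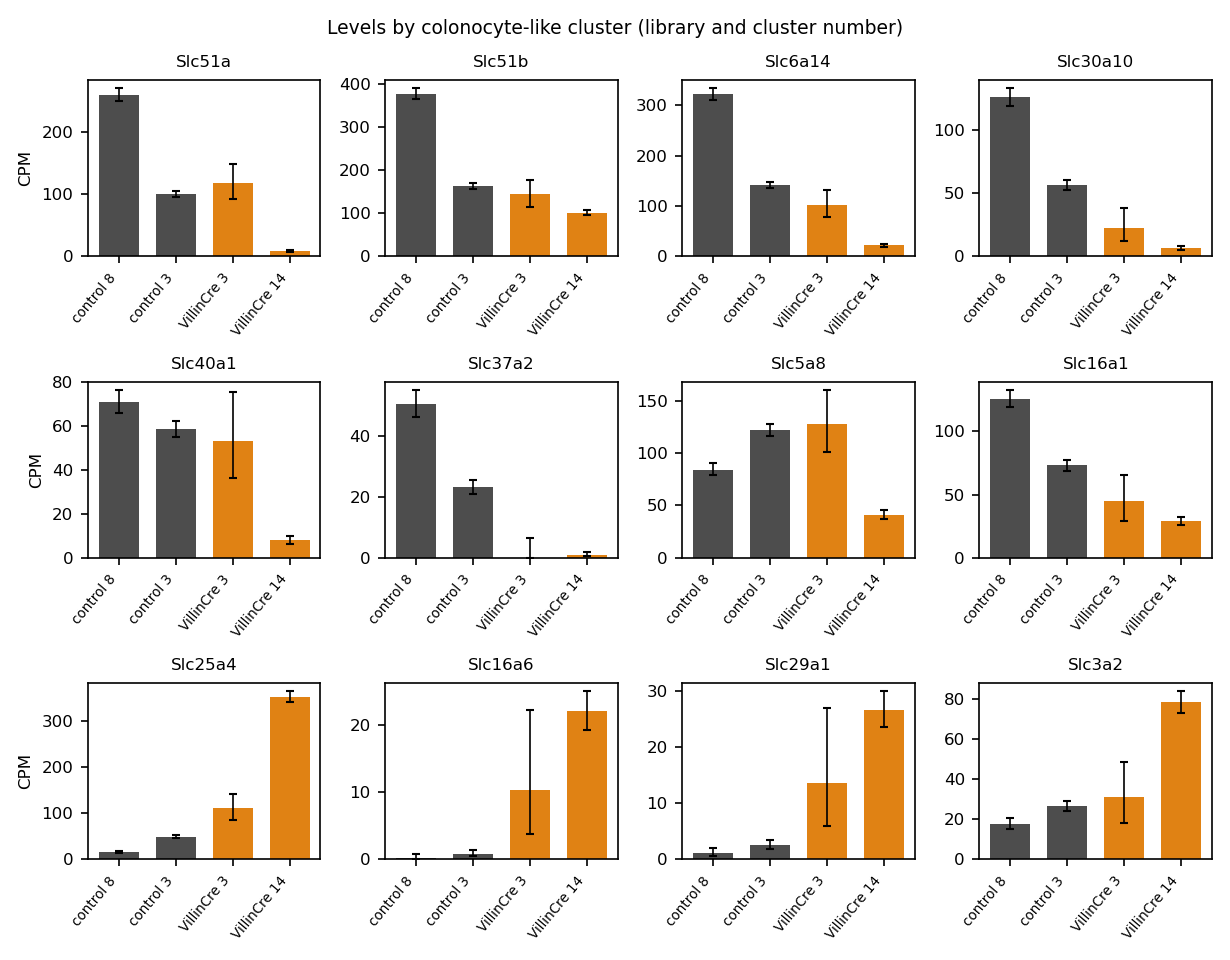
CPM of 12 members in the 4 combinations of cluster and library that held most colonocyte-like cells, namely control clusters 8 and 3 and VillinCre clusters 3 and 14, with exact 95% Poisson intervals (counting error only). Slc51a stood at 261, 99.9, 118 and 8.31 CPM in that order, and Slc25a4 at 15.7, 49.1, 111 and 353 CPM.

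The share of cells with a UMI gave the same directions at equal depth. Each cell was thinned to 1700 UMIs, which left out 71 control and 22 VillinCre colonocyte-like cells. Slc51a was then seen in 21.7% (19.8 to 23.8) of 1725 control and 2.76% (1.59 to 4.45) of 579 VillinCre cells, and without thinning in 61.3% and 11.8%. In T or NK-like cells, which should lack the gene, the thinned shares were 0.592% of 169 control cells and 0 of 249 VillinCre cells, which allows up to 1.20%. Slc6a14 was seen in 33.0% and 8.46% of thinned cells (76.2% and 24.6% unthinned, and 2.37% and 0.803% of thinned T or NK-like cells). Slc25a4 was seen in 5.10% and 31.3% (24.7% and 57.7% unthinned), and T or NK-like cells, which express it, had 34.9% and 36.1%. Slc16a6 reached 0.116% and 2.25% (0.668% and 25.6% unthinned) beside 2.37% and 6.43% in T or NK-like cells, so its thinned share was no higher than theirs. Slc37a2 was in 2.14% of control and 0 of 579 VillinCre cells, where 3 counts would be 0.518% of cells with a UMI at this depth. Without thinning it was in 7.57% of control cells and in 9 of 601 VillinCre cells. Its control UMIs thus lay in few cells, so intervals that take its UMIs as independent are too narrow.

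Goblet-like cells showed smaller differences. The class had 3454 control and 2465 VillinCre cells with medians of 10749 and 10632 UMIs. Of 118 members compared 17 were higher (14.4%, against 13.0% of all genes) and 23 lower (19.5%, against 17.2%), with a median log2 ratio of -0.05 beside -0.11 over all genes. Both shares lie near those of all genes. With each ratio centred on the median of all genes 22 members were higher (beside 16.6% of all genes) and 15 lower (beside 12.9%). Without mitochondrial and ribosomal genes in the scaling 23 of 136 were higher (beside 16.5%) and 19 lower (beside 13.6%). The 15 goblet markers summed to 80667 CPM in control and 52366 CPM in VillinCre, and 1100 VillinCre goblet-like cells lay in cluster 1, which was led by Gm26917 and Gm42418 and held 12.9% of the UMIs. Whether these differences have a part in those of the members was not tested.

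Sugar carriers in goblet-like cells had 3 of 7 lower (beside 17.2% of all genes), 0 higher (beside 13.0%) and a median log2 ratio of -0.55. Slc50a1, a sugar carrier found in the Golgi, had 630 CPM (622 to 637) in control and 330 CPM (324 to 336) in VillinCre, 1.91 times lower (1.87 to 1.95). It stood between 419 and 858 CPM in control clusters 0, 6, 7, 16 and 25, and at 133, 358 and 250.1 CPM in VillinCre clusters 1, 4 and 19. The 38 VillinCre cells of cluster 0 had 485 CPM (439 to 534), within the range of the control clusters. Slc37a1 had 73.7 CPM (71.1 to 76.4) and 32.9 CPM (31.1 to 34.9), 2.24 times lower. Nucleotide sugar carriers, which serve mucin glycosylation, had 0 of 11 past 1.5-fold, beside 13.0% of all genes higher and 17.2% lower. Among them Slc35a1 had 457 CPM (450 to 463) and 388 CPM (382 to 395), and Slc35a2, on the X chromosome, 111 and 105 CPM. Slc12a8, which marked goblet-like cells in control, was within 1.5-fold at 132 and 101 CPM.

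Further differences in goblet-like cells followed the colonocyte-like cells for some members. Slc16a6 had 9.96 CPM (9.01 to 11.0) in control and 39.9 CPM (37.9 to 42.1) in VillinCre, 4.01 times higher (3.58 to 4.49), and its level was at least 33.2 CPM in VillinCre clusters 1, 4 and 19 and at most 13.5 CPM in the 5 control clusters, with 15.3 CPM (8.15 to 26.2) in the 38 VillinCre cells of cluster 0. Slc25a4 had 49.9 CPM (47.8 to 52.2) and 148 CPM (144 to 152), 2.97 times higher, with 178 and 145 CPM in clusters 4 and 19 but 41.9 CPM in cluster 1. The zinc importer Slc39a10 had 6.51 and 20.2 CPM, the folate carrier Slc19a1 5.63 and 13.8 CPM, and Slc35f6 8.83 and 25.3 CPM. Slc6a14 had 23.1 CPM (21.6 to 24.6) and 4.07 CPM (3.43 to 4.80), 5.66 times lower, and its control level came mostly from cluster 7, with 65.0 CPM there and at most 11.0 CPM in the other control clusters. Slc35g2, an orphan relative of the nucleotide sugar carriers, had 22.6 CPM (21.2 to 24.1) and 4.16 CPM (3.51 to 4.90), 5.44 times lower, with at least 15.4 CPM in every control cluster and at most 3.58 CPM in VillinCre clusters 1, 4 and 19, but 16.5 CPM (9.01 to 27.7) in the 38 VillinCre cells of cluster 0. Slc9a3r2, a scaffold protein named after the exchanger it binds and no carrier itself, had 70.1 and 36.9 CPM.

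Cycling-like cells had few members past 1.5-fold, a count that depended on the processing. With each cell thinned to 1700 UMIs 23 of 117 were higher (beside 20.7% of all genes) and 35 lower (beside 24.2%). With a mean of per-cell CPM 20 of 118 were higher (beside 19.2%) and 30 lower (beside 21.5%). The class had 2581 control and 658 VillinCre cells, whose medians of 9608 and 3906.5 UMIs were far apart, and clusters led by Gm26917 and Gm42418 gave 6.94% of its control and 45.8% of its VillinCre UMIs. Of 110 members compared 10 were higher (9.09%, against 10.1% of all genes) and 9 lower (8.18%, against 8.74%), with medians of -0.03 over members and over all genes. Without the clusters led by Gm26917 and Gm42418 4 of 102 were higher (beside 3.43% of all genes) and 5 lower (beside 6.46%). Scaled without mitochondrial and ribosomal genes 19 of 135 were higher (beside 17.0%) and 9 lower (beside 5.41%). Centred on the median of all genes 11 were higher (beside 11.2%) and 6 lower (beside 7.79%). The 14 cycling markers summed to 4082 and 3976 CPM. Slc16a6 had 5.89 CPM (5.09 to 6.78) in control and 16.1 CPM (13.0 to 19.8) in VillinCre, and Slc7a5, which imports large neutral amino acids, 6.19 CPM (5.37 to 7.10) and 16.1 CPM (13.0 to 19.8). Both phosphate importers were higher, Slc20a1 with 10.4 and 16.1 CPM and Slc20a2 with 5.47 and 10.2 CPM, and so was Slc45a4 with 9.85 and 17.5 CPM. Slc17a4 had 10.3 CPM (9.27 to 11.5) and 3.16 CPM (1.87 to 4.99), the lowest ratio of the class, and Slc9a3r2 25.9 and 13.5 CPM. Slc4a4 was close to equal, with 51.4 CPM (49.0 to 53.9) and 54.5 CPM (48.7 to 61.0), in contrast to its values in colonocyte-like cells.

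Enteroendocrine-like cells, the hormone-secreting cells of the epithelium, had more members higher than lower in VillinCre, and so did all genes. The class had 223 control and 385 VillinCre cells with medians of 5332 and 3712 UMIs, and clusters 17 and 24 held the cells of both libraries. Of 125 members compared 36 were higher (28.8%, against 25.4% of all genes) and 16 lower (12.8%, against 17.1%), with a median log2 ratio of 0.26 beside 0.12. The share of higher members was near that of all genes. As a mean of the CPM of single cells 48 of 133 were higher (beside 27.6% of all genes) and 13 lower (beside 15.2%). Enteroendocrine markers summed to 66127 CPM in control and 129641 CPM in VillinCre, goblet markers to 21341 and 3837 CPM, and the 14 cycling markers, all lower, to 2052 and 343 CPM. The part of these differences in the members' values was not tested.

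Slc18a1 had 68.8 CPM (58.1 to 80.8) in control and 179 CPM (162 to 199) in VillinCre enteroendocrine-like cells, 2.61 times higher (2.15 to 3.18). Its UMIs came from cluster 17, with 106 and 273 CPM, and not from cluster 24, with 2.59 and 10.9 CPM. Thinned to 1700 UMIs it was seen in 22.2% of control and 28.9% of VillinCre cells (38.1% and 46.0% unthinned) and in 0 of the T or NK-like cells. Mitochondrial carriers gave 10 higher and 2 lower members of 27, beside 25.4% and 17.1% of all genes. Among the higher were the iron importer Slc25a28 with 17.8 CPM (12.6 to 24.4) and 58.2 CPM (48.2 to 69.6), and Slc25a4 with 227 and 423 CPM. Slc25a29, which carries basic amino acids, had 5.61 CPM (2.90 to 9.80) and 24.4 CPM (18.1 to 32.2). Metal carriers gave 1 lower and 5 higher of 19 (26.3%, near the 25.4% of all genes), the higher including Slc39a8, an importer of zinc and manganese, at 13.6 CPM (9.08 to 19.5) and 46.5 CPM (37.6 to 56.8). The sodium-proton exchanger Slc9a2 had 12.2 and 39.1 CPM, and the inositol carrier Slc2a13 3.27 CPM (1.32 to 6.75, 7 UMIs) and 14.7 CPM (9.90 to 20.9).

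Among the lower members of this class were Slc16a1 with 16.8 CPM (11.8 to 23.3, 36 UMIs) in control and 2.93 CPM (1.08 to 6.39, 6 UMIs) in VillinCre, Slc4a4 with 29.9 CPM (23.1 to 38.2) and 7.33 CPM (4.11 to 12.1), and Slc6a14 with 11.2 CPM (7.19 to 16.7) and 2.44 CPM (0.794 to 5.71). Slc16a1 and Slc4a4 were lower in cluster 17 and in cluster 24. Slc50a1 had 269 CPM (247 to 292) and 111 CPM (97.0 to 126), 2.42 times lower (2.07 to 2.84), with 266 and 102 CPM in cluster 17 and 274 and 127 CPM in cluster 24. The sodium-glucose cotransporter Slc5a1 had 58.0 and 21.0 CPM. Several of these rest on few UMIs, and their ratio intervals are correspondingly wide, for instance 2.40 to 16.7 for Slc16a1.

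Averaged over the 4 classes with equal weight, 24 of 157 members were higher (15.3%, against 14.3% of all genes) and 30 lower (19.1%, against 10.3%), with a median log2 ratio of 0.03 over members and over all genes. Scaled without mitochondrial and ribosomal genes 32 of 170 were higher (beside 17.4% of all genes) and 26 lower (beside 8.65%). The lowest means were -1.75 for Slc6a14, -1.72 for Slc30a10, -1.54 for Slc17a4, -1.50 for Slc25a35 and Slc37a2, -1.34 for Slc51a and -1.30 for Slc40a1. The highest were 1.99 for Slc16a6, 1.89 for Slc43a3, 1.56 for Slc25a4, 1.20 for Slc25a28 and 1.16 for Slc25a29. Sugar carriers gave 6 lower and 0 higher members of 10 compared, with a median of -0.62.

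Past 1.5-fold, 5 members had 1 direction in all 4 classes. Slc25a4 and Slc25a28 were higher by more than 1.5-fold in each of the 4 classes, and Slc25a35 and the copper importer Slc31a1 were among the 3 lower in each. In cycling-like cells Slc25a4 and Slc31a1 lay close to the limit of 1.5. With clusters at least 90% control only, which left out the enteroendocrine-like class, the mean log2 ratio of Slc25a28 over the other 3 classes was -0.18. Its mean over all 4 classes was 1.20, so the 2 values cover unlike sets of classes. That of Slc25a4 over the 3 classes was 0.91. Slc25a35 had 16.3 and 4.74 CPM in colonocyte-like, 31.2 and 10.8 CPM in goblet-like, 24.6 and 10.0 CPM in cycling-like, and 39.8 and 11.2 CPM in enteroendocrine-like cells. Slc31a1 had 102 and 49.4, 95.2 and 58.4, 60.5 and 39.8, and 57.1 and 34.2 CPM in the same order of classes. Of the 157 members 57 had the same sign in all 4 classes and 46 passed 1.5-fold in none, while 8 were higher in 1 class and lower in another. These counts over classes were not made for all genes, so they describe the members only. Slc6a6, the taurine importer, was within 1.5-fold in all 4, with 79.0 and 66.9 CPM in colonocyte-like and 87.0 and 91.9 CPM in enteroendocrine-like cells.

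**Figure D5:**
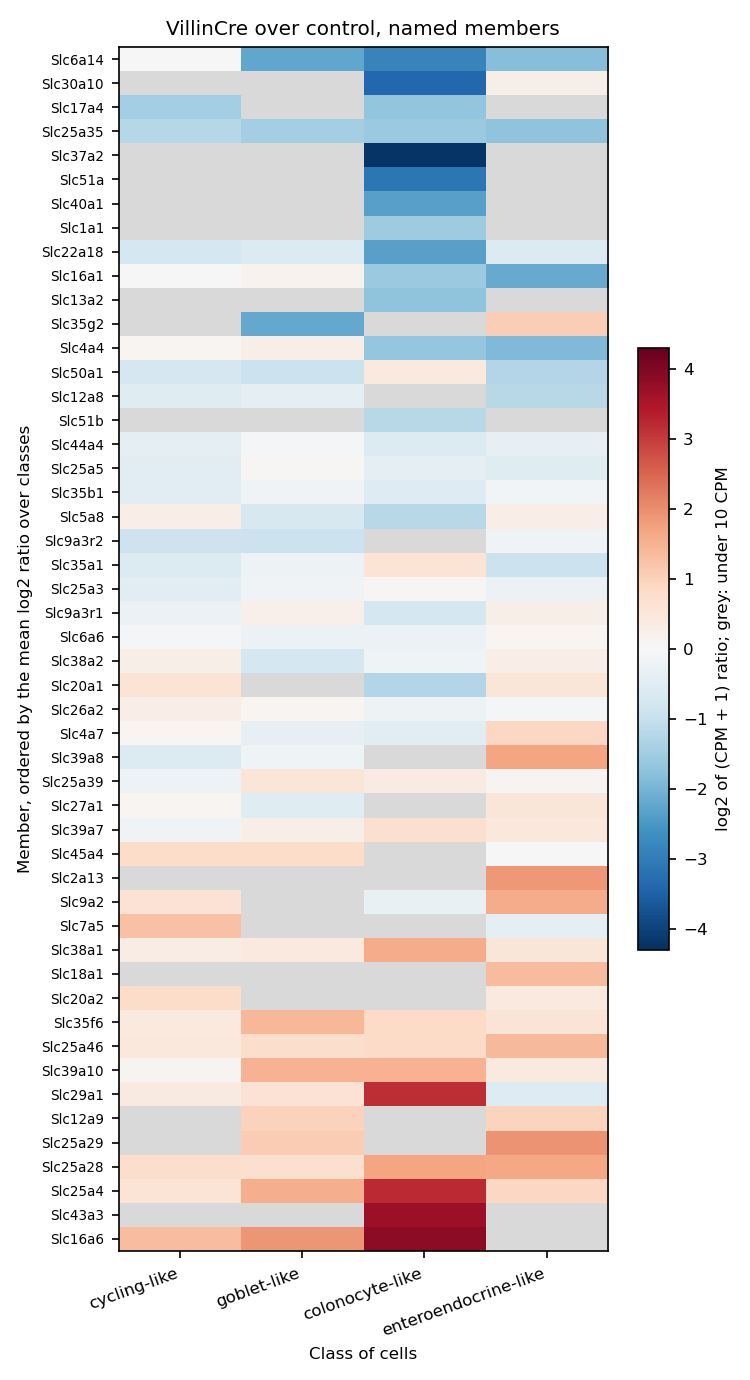
Log2 ratio of VillinCre over control, each CPM plus 1, for named members in the 4 larger classes, with grey where a member was under 10 CPM in both libraries. Slc25a4 and Slc25a28 are above 0.58, the log2 of 1.5, in all 4 columns, and Slc25a35 is below -0.58 in all 4.

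The ratios were also counted by the class to which a member was assigned in control. Of the 36 members assigned to colonocyte-like cells in control 28 (77.8%) were lower and 2 higher in VillinCre colonocyte-like cells, with a median log2 ratio of -1.27, beside 56.6% lower and a median of -0.75 over the 836 genes so assigned. Of 27 members assigned to goblet-like cells 3 (11.1%) were lower in that class, beside 41.8% of 538 genes, and the medians were -0.24 and -0.40. Of 9 assigned to enteroendocrine-like cells 5 (55.6%) were higher, beside 43.9% of 619 genes. The assignment and the ratio both use the control level, so these counts are a description only.

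Genes that work with these carriers were looked at in colonocyte-like cells for comparison. Of all genes compared in this class 27.9% were higher and 17.8% lower. Of 22 partners and coupled channels or pumps 18 were compared, with 7 higher and 5 lower. Bsg, the chaperone that Slc16a1 needs to reach the membrane, had 1559 CPM in control and 775 CPM in VillinCre. The potassium channel subunit Kcne3 had 44.5 and 142 CPM, and the sodium pump regulator Fxyd3 50.9 and 256 CPM, both higher in VillinCre. Of 16 transporters of the ABC family 11 were compared, with 6 lower and 1 higher, among them the exporters Abcg2 with 129 and 52.3 CPM and Abcc3 with 99.6 and 58.0 CPM. Of 26 carriers that belong to the solute carriers but have other symbols 15 were compared, with 4 lower and 3 higher, such as the mitochondrial uncoupling protein Ucp2 with 409 and 251 CPM and the serine carrier Sfxn1 with 42.2 and 72.4 CPM.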

How the data were processed

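Colonic crypt cells of 1 control and 1 VillinCre library were profiled with 10x Genomics chemistry. The authors deposited UMI counts per gene and cell barcode, not normalized. The submitters' processing notes name Cell Ranger 3.0.0 and Seurat 3, and per the file headers the matrices were written by Cell Ranger 3.1.0. For the genome build behind the counts, nothing is given in the sources used here. Cells needed 500 detected genes and less than 25% of their UMIs from mitochondrial genes, doublets were removed at a Scrublet score of 0.25 (77 control and 53 VillinCre), and 9077 and 7072 cells remained. They were clustered with scanpy 1.11.5 (2000 variable genes without Slc genes, 30 components, 15 neighbours, Leiden resolution 1) and named from markers. Counts were summed per class and library and scaled to CPM. The log2 ratio is of CPM plus 1, and genes with at least 10 CPM in 1 library of a class were compared. No test was made, since a genotype had 1 library. Poisson, binomial and ratio intervals are exact and cover counting error only, since total depth sets them and animals were pooled. The script was checked on simulated data. Named members were the highest and lowest ratios per class and by the mean, the highest levels, and the highest class ratios in control, and other members are named within their group. The members and lists were chosen with earlier results of these data known. Protein identity between paralogs was planned and not run, and shares of UMIs are given in its place. A few genes are not reported here.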

Additional observations from a re-analysis of the deposited data

Results flagged for a closer look

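There were 8 members higher past 1.5-fold in 1 class and lower past it in another, a count that was not made for all genes. These differences between classes were not tested, since each genotype had 1 library. The vesicular nucleotide carrier Slc17a9 had a log2 ratio of VillinCre over control of 0.68 in the colonocyte-like class and -1.06 in the enteroendocrine-like class. The CMP-sialic acid carrier Slc35a1 also had opposite signs, with 0.59 and -0.94 in these classes. The phosphate importer Slc20a1 had 0.59 in cycling-like and -1.26 in colonocyte-like cells.

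The remaining 5 were higher in VillinCre enteroendocrine-like cells and lower elsewhere. The fatty acid carrier Slc27a4 had -1.28 in the colonocyte-like class and 0.89 in enteroendocrine-like cells, and the zinc carrier Slc30a4 had -1.15 and 0.91 in the same order. In goblet-like cells the copper carrier Slc31a2 had -0.73, Slc35g2 -2.19 and the metal importer Slc39a14 -0.65. In enteroendocrine-like cells these had 0.79 for Slc31a2, 1.05 for Slc35g2 and 0.83 for Slc39a14.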

How the results depend on the processing

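Of 31 named members past 1.5-fold by the mean over classes, 28 had the same sign under all 17 alternatives. The exceptions were Slc25a28 (-0.18), Slc7a5 (-0.38) and Slc9a2 (-0.28) with clusters at least 90% control only. That left 129, 95 and 41 VillinCre cells in 3 classes and no enteroendocrine-like cells, so these means are over 3 classes. A kept sign did not mean a kept size among the 28. The mean of Slc4a4 was -0.80 and at its smallest -0.02, that of Slc39a10 0.88 and 0.02. That of Slc25a46 was 0.86 and 0.05, and that of Slc16a1 -0.92 and -0.13. Others stayed large, such as Slc16a6 at 0.996 or more and Slc6a14 at -0.89 or less. Of 308 values of counts, medians and shares under alternatives 235 stayed close and 73 moved, and the cause was not tested. Control-majority clusters gave 15 higher and 24 lower of 110 in colonocyte-like cells, beside 12.6% and 20.4% of all genes. They gave 4 and 8 of 115 in goblet-like cells (beside 3.57% and 10.2%) and 3 and 3 of 102 in cycling-like cells (beside 3.15% and 6.38%). By the mean over these 3 classes they gave 5 and 14 of 143 (beside 3.47% and 9.69%). A minimum of 50 CPM gave 7 and 19 of 42 in colonocyte-like cells (beside 27.9% and 19.6% of all genes) and 1 and 7 of 34 in goblet-like cells (beside 13.2% and 17.9%). It gave 1 and 4 of 26 in cycling-like cells (beside 6.33% and 11.9%) and 10 and 5 of 35 in enteroendocrine-like cells (beside 21.1% and 18.8%). By the mean it gave 10 and 18 of 63 (beside 12.6% and 12.8%). The medians were then -0.46 in colonocyte-like and -0.19 in cycling-like cells and -0.24 by the mean. No minimum, with all 182 members compared, gave 51 higher in colonocyte-like cells (beside 29.1% of all genes) and 30 higher in goblet-like cells (beside 13.2%). It gave 21 higher and 20 lower in cycling-like cells (beside 12.3% and 8.82%), and 28 lower in enteroendocrine-like cells (beside 18.9%). A pseudocount of 10 CPM gave 6 higher and 12 lower of 118 in goblet-like cells (beside 8.67% and 10.4% of all genes) and 3 and 4 of 110 in cycling-like cells (beside 4.32% and 4.98%). By the mean it gave 5 and 13 of 157 (beside 6.32% and 5.26%), and the median in enteroendocrine-like cells was 0.17. Without mitochondrial and ribosomal genes the medians were 0.11 in colonocyte-like and 0.10 in cycling-like cells, with 43 and 19 higher, and 3 members were highest in cycling-like control cells. Centring gave 15 lower in goblet-like cells and a median of 0.14 in enteroendocrine-like cells. Subtracting the UMIs of T or NK-like cells gave 55 of 124 higher (beside 35.0% of all genes) and a median of 0.40 in enteroendocrine-like cells. In cycling-like cells it gave 21 of 112 lower (beside 18.7%).

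Cycling-like counts moved under most choices of cells. They were 20 higher and 22 lower without doublet removal, 18 and 23 at resolution 2, 2 and 3 with Slc genes among the variable genes, 23 and 35 thinned to 1700 UMIs, 20 and 30 as a mean of per-cell CPM, 25 lower with the strict filter, and 4 and 5 without clusters led by Gm26917 or Gm42418, an alternative chosen after seeing the data. Members highest in control cycling-like cells were 1 without doublet removal, 2 at resolution 0.5, 1 at resolution 2, 5 thinned and 5 by per-cell CPM. Those highest in control enteroendocrine-like cells were 21 thinned and 23 by per-cell CPM, and 14 were highest in goblet-like cells under the strict filter. The same counts over all genes were not made for these assignments. Thinning gave 37 of 166 higher by the mean, beside 17.9% of all genes.

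The difference in share of colonocyte-like cells with a UMI, VillinCre minus control, was -49.5 percentage points for Slc51a, -51.5 for Slc6a14, 33.1 for Slc25a4 and 24.96 for Slc16a6 with all UMIs, and -29.3, -33.8, 30.5 and 4.88 at 3000 UMIs. No paired analysis was possible because each genotype had 1 library. With 1 pooled library per genotype the spread between animals is unknown, and classes of few cells, such as the 33 VillinCre cells of cluster 3, limit the precision.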

Other observations

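Members also varied in cells outside the main classes. In tuft-like cells (49 control and 43 VillinCre), the chemosensory cells of the epithelium, the glutamine importer Slc38a1 had 72.4 CPM in control and 51.5 CPM in VillinCre, the bicarbonate cotransporter Slc4a7 95.2 and 92.7 CPM, and the taurine importer Slc6a6 99.0 and 87.5 CPM. Slc25a4 had 68.5 CPM (40.6 to 108) and 242 CPM (178 to 322), but was seen in 12 of 49 control and 7 of 43 VillinCre cells, so its VillinCre UMIs came from few cells. In T or NK-like cells Slc3a2 had 188 and 219 CPM, Slc38a1 94.8 and 141 CPM, and Slc25a4 221 and 290 CPM.

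Some epithelial clusters had no name. Cluster 2 held 1056 VillinCre cells and was led by Il4i1, Ccl20 and Fabp5. It had 366 CPM (357 to 375) of Slc25a4, 50.9 CPM (47.6 to 54.3) of Slc16a6, 53.2 CPM of Slc29a1 and 45.8 CPM (42.7 to 49.0) of Slc2a6, a glucose transporter family member. Cluster 13 held 550 control cells and was led by genes that included Hoxb13 and Tgm3. It had 35.9 CPM of Slc25a4, 1.10 CPM of Slc16a6 and 0 UMIs of Slc2a6, but 220.2 CPM (209 to 232) of Slc6a14 and 35.7 CPM of Slc1a1. Slc6a14 had 8.48 CPM in cluster 2 and 51.1 CPM in the 256 VillinCre cells of cluster 18.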
